A study of Homo sapiens with 14 samples.

Results

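The comparison described here lay within RBI2-treated cells and set the 2 libraries labelled 120 min against the 4 libraries labelled 10 and 30 min. These 6 libraries were chosen by their labels from the 14 of the series, and no control library entered the comparison. All 6 came from MDA-MB-231, an established human breast cancer cell line that carries no estrogen receptor, and all 6 received 5 µM RBI2. RBI2 is a small-molecule inhibitor of ribosome biogenesis, and the series also holds control cells and cells given CX-5461, a known Pol I inhibitor, at the same labels. The labels give 2 replicates per time and do not say whether these were separate cultures, so the p-values measure only the spread between these samples, which may be technical. The time codes that came with the libraries read 02, 10 and 30 for the labels 10, 30 and 120 min. The study's methods give the same times as the labels. The codes were not resolved further here, and the groups are therefore called label 10, label 30 and label 120. If the codes share a unit, they keep the groups in the order of the labels. Read as 2 h, the code 02 would instead place label 10 last. The words early, before, rise and fall follow the labels only.

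Ribosome biogenesis starts with transcription of ribosomal RNA by RNA polymerase I (Pol I) and goes on with its processing and assembly with ribosomal proteins. Poly(A) RNA was sequenced, so the values report mainly mRNA, and the reads of the ribosomal DNA repeat had been taken out by the authors before transcripts were quantified. Over minutes to hours the mRNAs that move first are usually short-lived ones, such as those of immediate early genes, of feedback inhibitors of growth factor signalling and of transcription factors. In bulk RNA a share of cells that changed and a level per cell that changed cannot be told apart.

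The libraries held 16412188 and 16198285 estimated reads at label 10, 21107808 and 14697988 at label 30, and 16890323 and 14112299 at label 120. The 10 markers fixed for MDA-MB-231 were all detected and summed to between 7042.58 and 7245.55 counts scaled to 1000000 reads (CPM) at labels 10 and 30 and to 6895.85 and 7030.98 CPM at label 120, where VIM, the intermediate filament vimentin, alone held a mean of 2838 CPM. Of 10 luminal and epithelial markers, ESR1, PGR, FOXA1 and CDH1 stayed under 1 CPM in every library, while the keratin KRT8 held means of 540.3 CPM at labels 10 and 30 and 533 CPM at label 120. Of 10 markers of other cell types, 7 stayed under 1 CPM, among them PTPRC of leukocytes and CDH5 of endothelium. In a principal component analysis of the 500 most variable genes, replicate 2 of label 120 stood apart at 34.4 on the first component, which held 29.4% of the variance, against 9.16 for replicate 1 and between -15.5 and -7.68 for the 4 other libraries. The 2 libraries of label 120 differed by more than 2-fold at 542 genes, compared with 536 genes between the replicates of label 10 and 476 genes between those of label 30. Results are therefore also given without each library of label 120.

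Label 120 differed from labels 10 and 30 in many genes by small amounts. Of 15442 genes tested, 2172 (14.1%) were called at an adjusted p under 0.05, with 1212 higher (7.85%) and 960 lower (6.22%). The fold was at least 2-fold in either direction (a log2 fold change of 1 or more in size) for 144 of them (0.933%), of which 127 were higher (0.822%) and 17 were lower (0.11%). The median log2 fold change over all genes tested was 0.01. Both libraries of label 120 lay outside the range of the 4 others at 2095 of the 2172 genes called (96.5%), and at 5699 of all genes tested (36.9%). Against label 10 alone 3082 genes (20%) were called, 1546 higher (10%) and 1536 lower (9.95%). Against label 30 alone 199 (1.29%) were called, 174 higher (1.13%) and 25 lower (0.162%), and between labels 30 and 10 it was 202 (1.31%), 87 higher (0.563%) and 115 lower (0.745%), comparisons that share libraries with each other.

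These counts depended on the model and on single libraries. An offset for the average length of each gene's transcripts, which carries Salmon's effective lengths into the test, left 348 calls, 298 higher and 50 lower. A GC and length correction gave 2187 calls, of which 1211 were among the 2172. It turned the split from 55.8% to 33.7% higher, with 738 higher and 1449 lower, and moved the median log2 fold change over all genes from 0.01 to -0.04. Without the filter on low counts there were 3022 calls, 1352 higher and 1670 lower (44.7% higher), with a median of -0.03. The part of this downward shift in the falls called under these settings, also in the lists below, was not tested. The count was 422 without replicate 1 of label 120 and 207 without its replicate 2. It was 859 without replicate 1 of label 10, 1221 without replicate 1 of label 30 and 788 without replicate 2 of label 30. Against label 10 it fell to 477 and 1799 without replicates 1 and 2 of label 10, and to 1187 and 1479 without those of label 120. Against label 30 it fell to 10 and 9 without the replicates of label 30, to 27 and 7 without those of label 120, and to 47 and 34 without the replicates of CX-5461 at label 10, which were in no contrast but entered the filter, the scaling and the estimate of the spread. Between labels 30 and 10 it fell to 32 and 62 without the replicates of label 10, to 35 and 34 without those of label 30, to 133 and 132 without those of label 120, and to 93 and 84 without CX-5461 at label 10, and rose to 376 without either CX-5461 library of label 30. The genes described first are those whose call held under these settings.

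**Figure D1:**
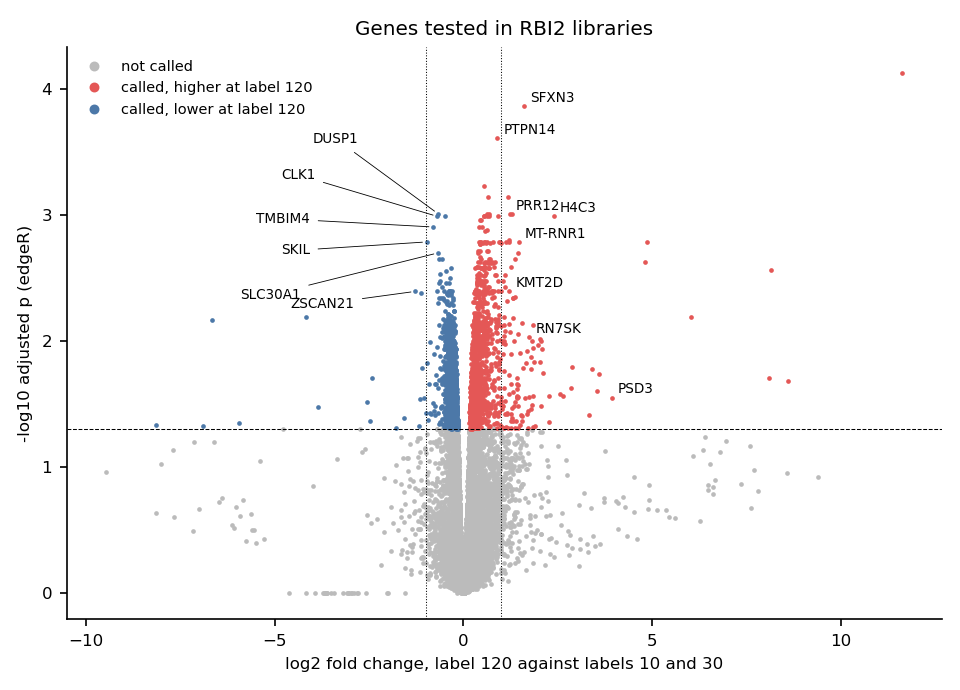
Each point is a gene tested, plotted by its log2 fold change at label 120 against labels 10 and 30 and by the -log10 of its adjusted p. Red points were called higher and blue points lower, the dashed line marks an adjusted p of 0.05 and the dotted lines a log2 fold change of 1 in either direction. The 1212 higher calls reach further to the right than most of the 960 lower calls reach to the left.

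The rises described first are those of single genes whose calls held best. SFXN3 (chr10:101031234-101041241, GRCh38, plus strand), which encodes a sideroflexin of the inner mitochondrial membrane, was at 20.8 and 20.2 CPM at label 10, 24.6 and 18.2 CPM at label 30, and 62.0 and 66.7 CPM at label 120. Both libraries of label 120 were far above the 4 others, and labels 10 and 30 overlapped. SFXN3 rose 3.07-fold by its means, with a log2 fold change of 1.61 ± 0.11 (SE) and an adjusted p of 1.4e-04. Its rise was similar against label 10 (log2 fold change 1.65) and against label 30 (1.58), and adjusted p was 0.0029 and 0.0064 without replicate 1 or 2 of label 120.

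PTPN14 (chr1:214348700-214552449, minus strand), a tyrosine phosphatase that binds the growth regulator YAP, was at 154 and 168 CPM at label 10, 172 and 171 CPM at label 30, and 319 and 302 CPM at label 120. It rose 1.87-fold, and its log2 fold change was 0.90 ± 0.07 (adjusted p = 2.5e-04). KMT2D (chr12:49018975-49060794, minus strand), a histone H3 lysine methyltransferase of enhancers, was at 48.8 and 85.8 CPM at label 10, 80.0 and 80.5 CPM at label 30, and 172 and 169 CPM at label 120. Replicate 1 of label 10 lay below the other 3 early libraries, and both libraries of label 120 were above all of them. The log2 fold change of KMT2D was 1.22 ± 0.18 (adjusted p = 0.0040), and it was 0.75 with the GC and length correction. Both PTPN14 and KMT2D overlap on the same strand with a gene named only by an identifier, so a part of their reads could be split.

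PRR12 (chr19:49591182-49626439, plus strand) was at 18.4 and 23.7 CPM at label 10, 26.6 and 26.8 CPM at label 30, and 56.8 and 54.4 CPM at label 120. It rose 2.33-fold (log2 fold change 1.23 ± 0.12, adjusted p = 9.9e-04). ZNF609 (chr15:64460578-64686068, plus strand), a zinc finger gene, was at 34.3 and 46.4 CPM at label 10, 61.7 and 54.5 CPM at label 30, and 81.8 and 88.2 CPM at label 120. The 3 labels did not overlap and stood in order for ZNF609, whose log2 fold change was 0.81 ± 0.11 (adjusted p = 0.0026). Its difference from label 30 alone, at 0.55, did not pass the test (adjusted p = 0.064). SFXN3, PTPN14, KMT2D, PRR12, ZNF609 and MT-RNR1 kept their calls under every model, filter and library set tried for single genes, each left-out library included.

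Falls at label 120 that stood apart from both earlier labels included a transcription factor and a membrane protein. ZSCAN21 (chr7:100049774-100065040, plus strand), a zinc finger transcription factor, was at 9.40 and 9.81 CPM at label 10, 9.36 and 8.98 CPM at label 30, and 3.37 and 4.43 CPM at label 120. The 4 early libraries lay close together and both libraries of label 120 were below them. ZSCAN21 fell 2.41-fold (log2 fold change -1.28 ± 0.19, adjusted p = 0.0041), and adjusted p was 0.054 without replicate 1 of label 120. TMBIM4 (chr12:66135846-66170027, minus strand), a Golgi membrane protein of a family that restrains cell death, was at 17.3 and 16.7 CPM at label 10, 14.4 and 15.3 CPM at label 30, and 8.84 and 9.46 CPM at label 120. TMBIM4 changed by a log2 fold change of -0.80 ± 0.09 (adjusted p = 0.0013), and adjusted p was 0.098 with the offset for transcript length. TMBIM4 also overlaps a second gene on its strand.

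**Figure D2:**
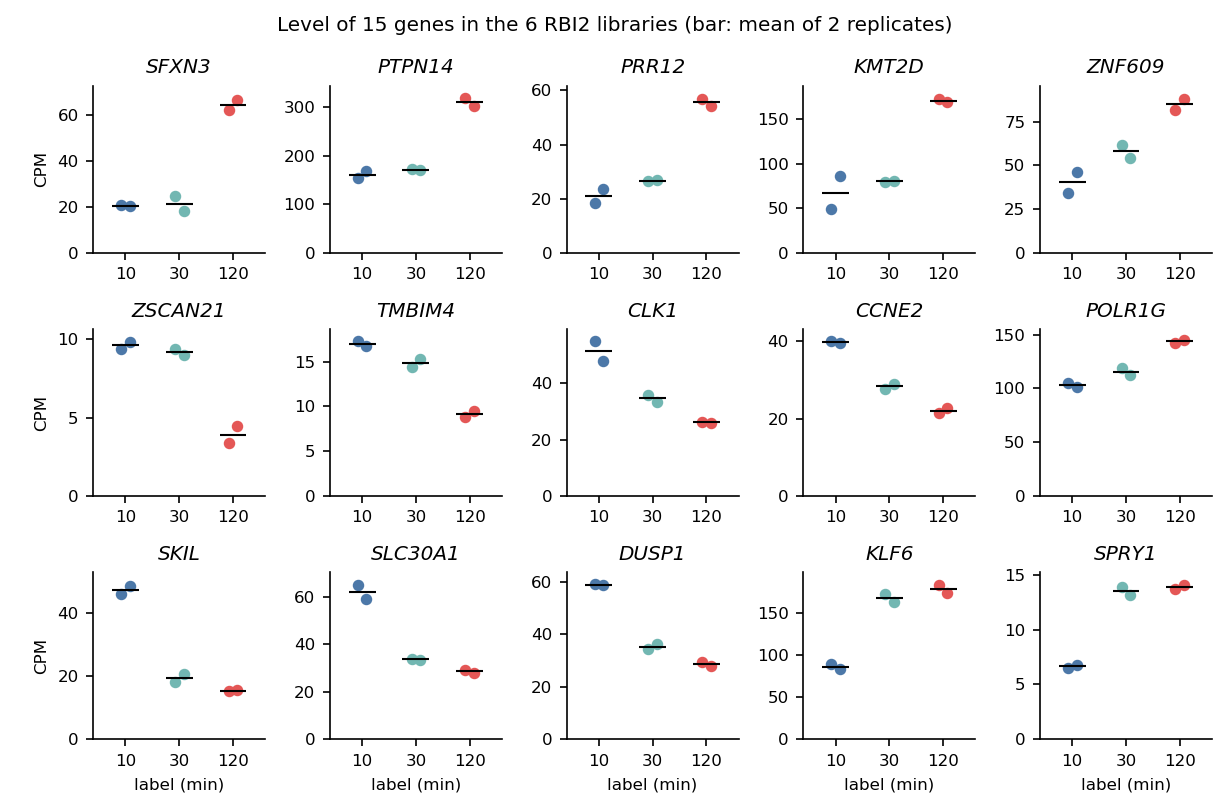
CPM (y axes, each from 0) of 15 genes in the 2 libraries of each label (x axis, label in min), with bars at the mean of 2 replicates. Both libraries of label 120 lie above the 4 others in the upper row and below them for ZSCAN21, whereas in the lower row label 10 stands apart and labels 30 and 120 lie close together.

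A second pattern was that labels 30 and 120 lay close together and label 10 stood apart. SKIL (chr3:170357342-170396835, plus strand), which encodes a corepressor of SMAD proteins, was at 46.3 and 48.8 CPM at label 10, 18 and 20.8 CPM at label 30, and 15.2 and 15.7 CPM at label 120. Its log2 fold change was -0.97 ± 0.11 against both labels (adjusted p = 0.0016), -1.62 against label 10 alone and -0.32 against label 30 alone, where it did not pass the test (adjusted p = 0.23). SLC30A1 (chr1:211571568-211579161, minus strand), the zinc exporter of the plasma membrane, was at 65.2 and 59.2 CPM at label 10, 34 and 33.6 CPM at label 30, and 29.3 and 28.1 CPM at label 120. It fell by 0.68 ± 0.08 on the log2 scale (adjusted p = 0.0020), and by 0.24 against label 30 alone (adjusted p = 0.24). DUSP1 (chr5:172768096-172771195, minus strand), a phosphatase that switches off MAP kinases, was at 58.9 and 58.7 CPM at label 10, 34.2 and 36.3 CPM at label 30, and 29.3 and 27.7 CPM at label 120. It fell by 0.67 ± 0.06 on the log2 scale (adjusted p = 9.8e-04). With the offset for transcript length the log2 fold change of SKIL was -0.57, and adjusted p was 0.064 for SKIL, 0.018 for SLC30A1 and 0.0026 for DUSP1, and with labels 10 and 30 treated as a single group none of the 3 passed.

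SKIL and DUSP1 belong to the genes that answer within minutes to signalling, and their promoters are shown because each holds TGACGTCA, the full site of the cAMP response element, in capitals. The windows run from 250 bases before to 50 bases after the start of the gene on its own strand, from RefSeq on GRCh38.p14, whose start of SKIL lies inside the GENCODE gene given above rather than at its first base. The site of SKIL starts 54 bases before the start (chr3:170357465-170357764, plus strand) and that of DUSP1 125 bases before it (chr5:172771146-172771445, minus strand).
SKIL promoter: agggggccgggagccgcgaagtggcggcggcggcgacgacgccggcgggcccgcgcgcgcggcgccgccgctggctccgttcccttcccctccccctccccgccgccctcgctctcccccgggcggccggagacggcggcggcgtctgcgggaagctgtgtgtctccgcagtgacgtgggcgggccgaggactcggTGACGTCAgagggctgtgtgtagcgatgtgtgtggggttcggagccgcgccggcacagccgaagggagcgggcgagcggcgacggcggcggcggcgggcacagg
DUSP1 promoter: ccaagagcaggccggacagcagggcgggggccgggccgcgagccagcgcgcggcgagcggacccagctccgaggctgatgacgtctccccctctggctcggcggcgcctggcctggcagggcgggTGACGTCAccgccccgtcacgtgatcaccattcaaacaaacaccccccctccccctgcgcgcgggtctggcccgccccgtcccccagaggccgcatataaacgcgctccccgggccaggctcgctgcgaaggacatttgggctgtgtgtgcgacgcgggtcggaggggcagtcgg
TGACGTCA, searched on both strands, was present in 3.53% of the promoters of genes called lower, 3.74% of those of genes called higher and 3.3% of the 10989 promoters of genes tested. The shares for CACGTG were 10.3%, 11.7% and 9.96%, and those for TGACTCA were 2.88%, 2.6% and 3.26%. No motif stood clearly above its share among all genes tested.

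The 3′ UTRs of SLC30A1, DUSP1 and CSRNP1, a nuclear protein of the immediate early response, hold TTATTTATT, a sequence of AU-rich elements that mark many short-lived mRNAs. The sites are shown with 9 bases on each side and the motif in capitals, from GENCODE release 44 on GRCh38. They begin at base 2230 of the 3′ UTR of SLC30A1, at bases 101 and 369 of that of DUSP1 and at base 152 of that of CSRNP1.
SLC30A1: agcagagaaTTATTTATTtctttacaa
DUSP1 first site: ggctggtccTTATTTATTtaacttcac
DUSP1 second site: gaatataccTTATTTATTtttgtgtag
CSRNP1: tctctggatTTATTTATTtgttttaac
Among genes with a 3′ UTR, 11.8% of those called lower, 10.8% of those called higher and 9.68% of all tested hold TTATTTATT. CSRNP1 was at 40.2 and 40.7 CPM at label 10, 22.9 and 21.2 CPM at label 30, and 23.4 and 18.9 CPM at label 120. It fell by 0.49 ± 0.09 on the log2 scale (adjusted p = 0.0077), and adjusted p was 0.068 without replicate 2 of label 120.

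The BMP and TGF-beta response genes held the most falls of the signalling lists. Of 19 tested, 6 were lower (31.6%) and 1 was higher (5.26%), against 6.22% and 7.85% over all genes. The median log2 fold change of the list was -0.23. The 6 that fell were SKIL, ID1, ID2, ID3, SMAD7 and SNAI2. Without either library of label 120 the falls were 2, without any of the 4 other RBI2 libraries they were 6, with the offset for transcript length they were 3, and with labels 10 and 30 treated as a single group there were none. ID1, which blocks basic helix-loop-helix transcription factors, was at 238 and 231 CPM at label 10, 154 and 164 CPM at label 30, and 140 and 131 CPM at label 120. ID1 fell by 0.51 ± 0.08 on the log2 scale (adjusted p = 0.0041), with an adjusted p of 0.053 without replicate 2 of label 120. ID2, of the same family, went from 12.8 and 12.7 CPM at label 10 to 4.89 and 5.76 CPM at label 30, and was at 4.69 and 5.47 CPM at label 120. Its log2 fold change was -0.70 ± 0.11 (adjusted p = 0.0041, and 0.053 without replicate 1 of label 120). SMAD7, an inhibitor of TGF-beta receptors, was at 36.0 and 33.0 CPM at label 10, 11.8 and 11.4 CPM at label 30, and 13.9 and 13.8 CPM at label 120. SMAD7 at label 120 thus lay slightly above label 30 and far below label 10, and its log2 fold change was -0.53 ± 0.10 (adjusted p = 0.0079, and 0.063 and 0.066 without replicate 1 or 2 of label 120). Against label 30 alone the median of the list was -0.01, against -0.31 for label 10 alone and -0.41 between labels 30 and 10.

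Few immediate early genes were called. Of 27 tested, 2 were higher (7.41%; KLF6 and FOSL1) and 3 were lower (11.1%; MYC, CSRNP1 and KLF10). These were near the shares over all genes (7.85% and 6.22%), and the median log2 fold change of the list was -0.07. With the GC and length correction 2 were higher and 5 were lower. Of 13 genes of the KLF family, KLF6 was the single rise and KLF10 the single fall (7.69% each), near the shares over all genes. KLF10 lost its call whichever of the 6 RBI2 libraries was left out. KLF6 (chr10:3775996-3785281, minus strand), a zinc finger transcription factor, was at 89.4 and 82.7 CPM at label 10, 173 and 162 CPM at label 30, and 183 and 173 CPM at label 120. It rose by a log2 fold change of 0.57 ± 0.06 (adjusted p = 0.0013), and by 0.09 against label 30 alone (adjusted p = 0.60). Without replicate 1 of label 120 there were 2 rises and 1 fall, without replicate 2 a single rise and no fall, without any of the 4 other RBI2 libraries 2 rises and 1 fall, and with labels 10 and 30 as a single group no call.

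Feedback inhibitors of MAP kinase signalling also split, with 3 of 20 higher (15%; DUSP16, SPRY1 and SPRED3) and 3 lower (15%; DUSP1, DUSP5 and SPRED1), against 7.85% and 6.22% over all genes. With the GC and length correction 2 were higher and 6 lower, and under the offset 1 and 1. SPRY1 (chr4:123396795-123403760, plus strand), an inhibitor of receptor tyrosine kinase signalling, was at 6.45 and 6.81 CPM at label 10, 13.9 and 13.2 CPM at label 30, and 13.7 and 14.1 CPM at label 120. SPRY1 rose by a log2 fold change of 0.55 ± 0.08 (adjusted p = 0.0031), while it was 0.03 against label 30 alone. With labels 10 and 30 as a single group the call of SPRY1 was lost, and the list had 1 rise and 1 fall. SPRED3, an inhibitor of RAS signalling, was at 12.6 and 15.9 CPM at label 10, 23.0 and 22.0 CPM at label 30, and 30.3 and 27.9 CPM at label 120. SPRED3 rose by a log2 fold change of 0.70 ± 0.09 (adjusted p = 0.0022), with an adjusted p of 0.062 under the offset for transcript length. The median log2 fold change of the list was -0.06. Whichever of the 6 RBI2 libraries was left out, it lay between -0.09 and -0.05, and the number of falls called depended on the library left out.

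NF-kB target genes had 2 rises (8.70%, near the share over all genes) and no fall among 23 tested. With labels 10 and 30 as a single group neither rise was called, and with the GC and length correction there were 2 rises and 2 falls. BIRC3, a ubiquitin ligase that inhibits apoptosis, was at 29.7 and 29.6 CPM at label 10, 44.1 and 48.3 CPM at label 30, and 51.0 and 51.6 CPM at label 120 (log2 fold change 0.47 ± 0.06, adjusted p = 0.0027). NFKBIA, the inhibitor that holds NF-kB in the cytoplasm, was at 29.7 and 25.7 CPM at label 10, 36.4 and 36.8 CPM at label 30, and 40.9 and 43.5 CPM at label 120. NFKBIA rose by a log2 fold change of 0.41 ± 0.07 (adjusted p = 0.0077, and 0.087 without replicate 2 of label 120). With the offset for transcript length the log2 fold change of BIRC3 was 0.26 (adjusted p = 0.16). For the YAP list and the HES, HEY and SOX list that follow, the shares over all genes were 7.85% higher and 6.22% lower. YAP target genes had 3 rises (ARHGEF17, PTPN14 and AMOTL1) and 3 falls (GADD45B, CCN2 and NT5E) among 24 (12.5% each), 2 rises and 6 falls with the GC and length correction, and only 1 rise without either library of label 120, with no fall either without replicate 1 of label 10 or either replicate of label 30. Among 14 HES, HEY and SOX regulators 4 were higher (SOX9, SOX12, SOX13 and NOTCH1, 28.6%) and none was lower, and none passed without either library of label 120, against 1 without replicate 1 of label 10 or replicate 2 of label 30 and 2 without the remaining RBI2 libraries or either CX-5461 library of label 10. There was 1 rise under the offset, and 1 rise and 1 fall with the GC and length correction. NOTCH1, a receptor that acts through HES and HEY genes, was at 60.1 and 77.2 CPM at label 10, 81.2 and 87.7 CPM at label 30, and 121 and 118 CPM at label 120, with a log2 fold change of 0.65 ± 0.11 (adjusted p = 0.0073, and 0.063 and 0.062 without replicate 1 or 2 of label 120). With the GC and length correction the log2 fold change of NOTCH1 was 0.38.

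**Figure D3:**
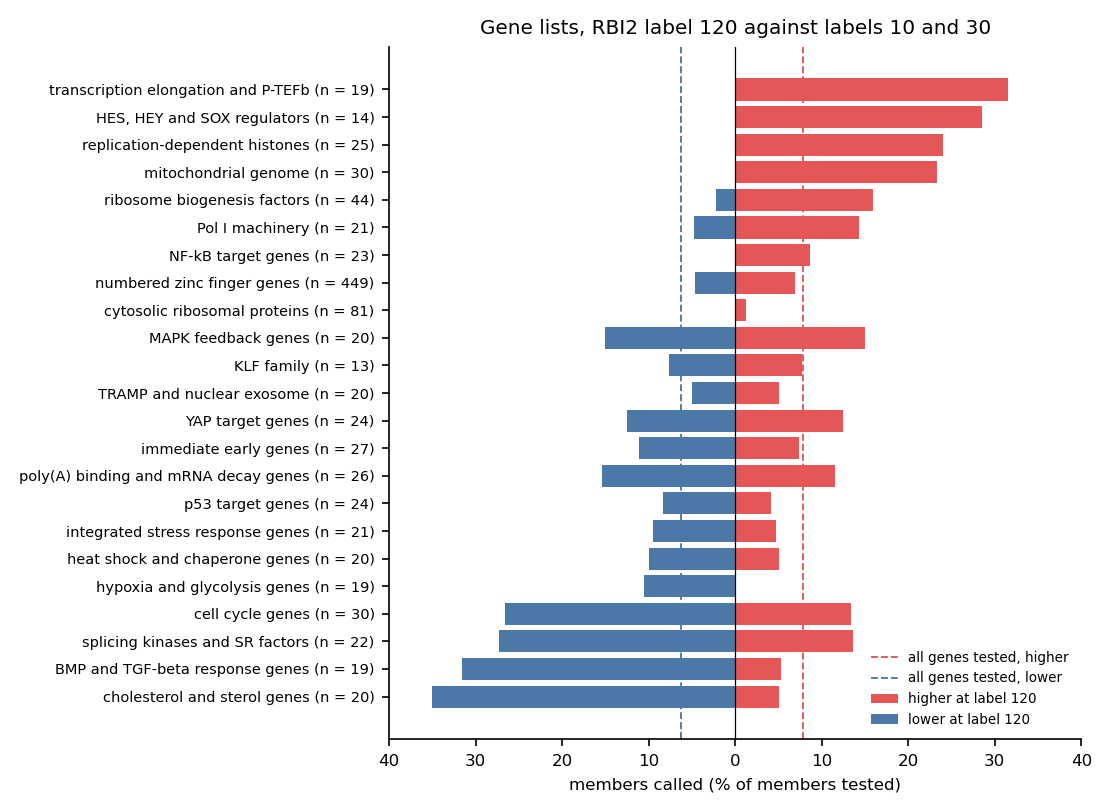
For each gene list, bars give the share of its tested members (x axis, %) that were called higher (right) or lower (left) at label 120 against labels 10 and 30, and dashed lines give the shares over all genes tested, 7.85% and 6.22%. Sterol genes and BMP and TGF-beta response genes reach furthest to the left, and genes of transcription elongation furthest to the right.

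Genes for the making of ribosomes were taken as assembly factors, the Pol I machinery and ribosomal proteins. Of 44 ribosome biogenesis factors tested, 7 were higher (15.9%; RRP12, TCOF1, PPAN, NAT10, WDR4, DDX21 and RRS1) and 1 was lower (2.27%; WDR43). The shares over all genes were 7.85% and 6.22%, and the median log2 fold change of the list was 0.02. Without either library of label 120 the rises were 2, with the offset for transcript length they were 2, and with the GC and length correction there were 8 rises and 4 falls. TCOF1, which encodes the nucleolar protein treacle that links Pol I transcription and rRNA modification, was at 350 and 402 CPM at label 10, 437 and 412 CPM at label 30, and 510 and 514 CPM at label 120. TCOF1 rose by a log2 fold change of 0.36 ± 0.06 (adjusted p = 0.0051), with an adjusted p of 0.054 without replicate 2 of label 120 and of 0.056 under the offset. NAT10, an acetyltransferase that modifies 18S rRNA, was at 98.4 and 117 CPM at label 10, 110 and 121 CPM at label 30, and 169 and 170 CPM at label 120. NAT10 rose by a log2 fold change of 0.60 ± 0.10 (adjusted p = 0.0066, and 0.053 and 0.061 without replicate 1 or 2 of label 120), and under the offset it was 0.22 (adjusted p = 0.27).

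Of 21 genes of the Pol I machinery, 3 were higher (14.3%; POLR1A, POLR1E and POLR1G) and 1 was lower (4.76%; RRN3), against 7.85% and 6.22% over all genes, and the median log2 fold change was 0.01. POLR1G (chr19:45406644-45410737, plus strand), a subunit specific to Pol I, was at 105 and 101 CPM at label 10, 119 and 112 CPM at label 30, and 142 and 145 CPM at label 120. Both libraries of label 120 were above the other 4, and POLR1G rose by a log2 fold change of 0.40 ± 0.06 (adjusted p = 0.0041, and 0.055 without replicate 2 of label 120). RRN3, the factor that brings Pol I to its promoter, was at 50.1 and 49.2 CPM at label 10, 40.4 and 44.9 CPM at label 30, and 37.3 and 34 CPM at label 120. It fell by 0.37 ± 0.09 on the log2 scale (adjusted p = 0.028), but this call was lost without replicate 1 or 2 of label 120 (0.097 and 0.18), without either replicate of label 10 and without replicate 2 of label 30. Of the list, 1 gene rose without replicate 1 of label 120, replicate 1 of label 10 or replicate 2 of label 30, and none passed without replicate 2 of label 120. With the GC and length correction 3 rose and 2 fell. Of 81 cytosolic ribosomal protein genes only RPS15A was called (1.23% higher and none lower, against 7.85% and 6.22% over all genes). Their median log2 fold change was 0.03. RPS15A was at 414 and 417 CPM at label 10, 298 and 317 CPM at label 30, and 399 and 417 CPM at label 120, so that label 30 stood apart and its log2 fold change of 0.19 ± 0.05 (adjusted p = 0.042) was -0.03 against label 10 alone. Its adjusted p was 0.12 and 0.26 without replicate 1 or 2 of label 120, and DESeq2 called 3 ribosomal protein genes. No ribosomal protein gene was called under the offset, while 2 were lower without replicate 1 of label 120, and 8 were lower and 2 higher with the GC and length correction.

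Genes of RNA decay were called in both directions. Those of the TRAMP complex and nuclear exosome were called no more often than all genes tested (7.85% higher and 6.22% lower). Their list had no call under the offset for transcript length. With the GC and length correction it had 3 falls and no rise, with neither of the genes named next among them. Of 20 genes of the TRAMP complex and nuclear exosome, which add short poly(A) tails to faulty nuclear RNA and degrade it, EXOSC6 was higher (5%) and MTREX was lower (5%), and neither was called without either library of label 120, replicate 1 of label 10 or replicate 2 of label 30. Of 26 genes of poly(A) binding and mRNA decay, 3 were higher (11.5%; ATXN2, ATXN2L and TOB2) and 4 were lower (15.4%, against 7.85% and 6.22% over all genes; DCP2, PAIP1, PAIP2 and CNOT7). DCP2, the decapping enzyme, went from a log2 fold change of -0.35 to 0.012 under the offset, and its call was lost when any of the 6 RBI2 libraries was left out (adjusted p = 0.16 and 0.13 without replicate 1 or 2 of label 120). A single rise was left without replicate 1 of label 120 and under the offset, no call without replicate 2, and 1 rise and 1 fall without replicate 1 of label 10 or replicate 2 of label 30. ATXN2L, a relative of the RNA-binding protein ataxin-2, was at 167 and 180 CPM at label 10, 178 and 176 CPM at label 30, and 211 and 222 CPM at label 120. ATXN2L rose by a log2 fold change of 0.31 ± 0.05 (adjusted p = 0.0041, 0.059 without replicate 2 of label 120 and 0.19 under the offset). PABPC1, the main cytoplasmic poly(A)-binding protein, differed by 0.07 ± 0.05 on the log2 scale and did not pass the test (adjusted p = 0.44). ATXN2 gave a fitted log2 fold change of 0.27 ± 0.06 (adjusted p = 0.018), which was lost when any of the 6 RBI2 libraries was left out, with adjusted p of 0.071 and 0.17 without replicate 1 or 2 of label 120. The reference gene GAPDH gave a fitted log2 fold change of -0.05 ± 0.06 (adjusted p = 0.65), and of -0.17 with the GC and length correction, where it passed (adjusted p = 0.0094).

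Some genes of transcription elongation were called higher and most were not called. Of 19 genes of P-TEFb, its regulators and RNA polymerase II elongation, 6 were higher (31.6%), against 7.85% over all genes. The rises included CDK9, BRD3 and POLR2A, and the median log2 fold change of the list was 0.05. Without replicate 1 or 2 of label 120 the rises were 2 and 1, they were 2 without replicate 2 of label 30 and 3 without replicate 1 of label 10, and they were 3 under the offset and 3, beside 2 falls, with the GC and length correction. BRD3, a reader of acetylated histones, was at 37.2 and 45.3 CPM at label 10, 58.1 and 54.3 CPM at label 30, and 71.2 and 65.6 CPM at label 120. BRD3 rose by a log2 fold change of 0.51 ± 0.08 (adjusted p = 0.0040, 0.052 without replicate 1 of label 120 and 0.050 under the offset, where it just missed the threshold). POLR2A, the largest subunit of RNA polymerase II, gave a fitted log2 fold change of 0.45 ± 0.10 (adjusted p = 0.016) that was lost without replicate 1 or 2 of label 120 (0.084 and 0.12), without replicate 1 of label 10 and without replicate 2 of label 30. RN7SK, the noncoding RNA that holds P-TEFb inactive, rose as well and is described with the structural RNAs.

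Of 22 splicing kinases and SR factors tested, 6 were lower (27.3%; CLK1, CLK4, SRSF1, SRSF2, SRSF6 and RBM39), against 6.22% over all genes. Another 3 were higher (13.6%; CLK2, SON and SRPK2), against 7.85% over all genes. The median log2 fold change of the list was -0.13. With labels 10 and 30 as a single group it had 2 falls and 1 rise. CLK1 (chr2:200853009-200864691, minus strand), a kinase that phosphorylates SR splicing factors, was at 55.0 and 48.2 CPM at label 10, 36.0 and 33.6 CPM at label 30, and 26.4 and 25.9 CPM at label 120. The 3 labels did not overlap and fell in order. The log2 fold change of CLK1 was -0.70 ± 0.07 (adjusted p = 0.0010), and it passed against label 10 alone (-0.98) and label 30 alone (-0.41, adjusted p = 0.041). Under the offset its adjusted p was 0.11. The falls of the list were 2 and 1 without replicate 1 or 2 of label 120, 3 without replicate 1 of label 10 or replicate 2 of label 30, and none under the offset. The rises were 0 without replicate 2 of label 120 or replicate 1 of label 30, and 1 without replicate 1 of label 120, replicate 1 of label 10 or replicate 2 of label 30.

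Cell cycle genes had 8 falls (26.7%) and 4 rises (13.3%) among 30 tested, against 6.22% and 7.85% over all genes. The falls were CCNE2, CCNA2, CCNB1, CCNB2, CDK1, CDC6, PCNA and TTK, and the rises were MKI67, CENPE, TOP2A and CDC25B. With labels 10 and 30 as a single group the list had 2 falls and 1 rise, and with all 14 libraries 1 fall and no rise. CCNE2 (chr8:94879770-94896678, minus strand), the cyclin E2 of entry into S phase, was at 40.2 and 39.6 CPM at label 10, 27.8 and 29.1 CPM at label 30, and 21.3 and 22.8 CPM at label 120. CCNE2 fell by 0.61 ± 0.09 on the log2 scale (adjusted p = 0.0034, and 0.15 under the offset). CDK1, the kinase of entry into mitosis, was at 215 and 227 CPM at label 10, 206 and 211 CPM at label 30, and 183 and 160 CPM at label 120 (log2 fold change -0.33 ± 0.06, adjusted p = 0.0081, and 0.076 without replicate 2 of label 120). Falls of this list numbered 2 and 1 without replicate 1 or 2 of label 120 and 3 without any of the 4 other RBI2 libraries, and the list had no call under the offset. Its rises numbered 0 without either library of label 120, 2 without replicate 2 of label 10, and 1 without any other RBI2 library or either CX-5461 library of label 10.

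Cholesterol and sterol genes had 7 falls (35%), HMGCS1, IDI1 and INSIG1 among them, and 1 rise (5%) among 20 tested. The shares over all genes were 6.22% lower and 7.85% higher, and the median log2 fold change of the list was -0.11. With labels 10 and 30 as a single group 1 fall was called, and HMGCS1, IDI1 and INSIG1 lost their calls. HMGCS1, which makes HMG-CoA for the mevalonate pathway, was at 49.2 and 47.1 CPM at label 10, 32.4 and 35.8 CPM at label 30, and 26.7 and 29.6 CPM at label 120. It fell by 0.53 ± 0.09 on the log2 scale (adjusted p = 0.0074, and 0.082 and 0.051 without replicate 1 or 2 of label 120). IDI1, an isomerase of the same pathway, was at 106 and 105 CPM at label 10, 86.3 and 83.9 CPM at label 30, and 75.2 and 74.8 CPM at label 120. IDI1 fell by 0.34 ± 0.05 on the log2 scale (adjusted p = 0.0043, and 0.053 without replicate 2 of label 120), and it passed under the offset as well (0.035). The falls of the list were 1 and 0 without replicate 1 or 2 of label 120, 4 without replicate 1 of label 10 or replicate 2 of label 30, and 1 under the offset.

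Stress lists stayed near the shares over all genes in the main model. The p53 target genes had 1 rise and 2 falls among 24, and the integrated stress response 1 rise and 2 falls among 21. Heat shock and chaperone genes had 1 rise and 2 falls among 20, and hypoxia and glycolysis genes 2 falls among 19. With the GC and length correction heat shock and chaperone genes had 3 rises and 1 fall, and hypoxia and glycolysis genes 5 falls. DESeq2 called 3 rises and 2 falls in the former list and 4 falls in the latter. None of the integrated stress response or hypoxia genes passed without either library of label 120. HSPA1A, an inducible HSP70 chaperone with a near-identical copy in HSPA1B, was at 48.8 and 49.8 CPM at label 10, 85.7 and 84.4 CPM at label 30, and 86.3 and 97.6 CPM at label 120. Its log2 fold change was 0.50 ± 0.10 (adjusted p = 0.010, and 0.11 without replicate 2 of label 120), and it was 0.04 under the offset (adjusted p = 0.83). Of 449 zinc finger genes with numbered names, 31 were higher (6.90%) and 21 were lower (4.68%). Without replicate 1 or 2 of label 120 the zinc finger rises were 4 and 3 and the falls 1 and 1, under the offset there were 10 rises and 1 fall, and falls outnumbered rises with the GC and length correction (16 rises and 22 falls) and without the filter on low counts (25 and 37). Of the 10 markers of the cell line, 2 were higher (20%) and 3 were lower (30%), but no fall was left without any single one of the 6 RBI2 libraries and no call without replicate 2 of label 120 or under the offset.

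Genes of lncRNA were called lower less often than all genes tested, and their share called higher was no larger. Of 2191 lncRNA genes, 147 were higher (6.71%) and 16 were lower (0.730%), against 7.85% and 6.22% over all genes. Among 12622 protein-coding genes 1020 were higher (8.08%) and 936 were lower (7.42%). These shares are those of the main model, and the filter on low counts kept genes that were high in at least 1 group. The median log2 fold change was 0.17 over lncRNA genes and -0.01 over protein-coding genes. The share of reads in lncRNA genes was 1.29%, 1.37%, 1.38% and 1.37% in the 4 early libraries and 1.60% and 1.56% at label 120. The means were 1.58% ± 0.0275 (SD, n = 2) and 1.35% ± 0.0442 (SD, n = 4), a difference of 0.228 percentage points without overlap, with p = 0.133 in an exact two-sided permutation test, the smallest p that 2 against 4 libraries allow. The share of reads in retained-intron transcripts was 4.42% ± 0.201 (SD, n = 2) at label 120 and 4.41% ± 0.0930 (SD, n = 4) before (exact permutation p = 1). MIRLET7BHG, the host gene of let-7 microRNAs, was at 1.35 and 1.5 CPM at label 10, 4.61 and 5.03 CPM at label 30, and 7.27 and 5.32 CPM at label 120. MIRLET7BHG rose by a log2 fold change of 1.27 ± 0.17 (adjusted p = 0.0026), and it overlaps PRR34-AS1 and the microRNA genes on its strand. Its call was kept without either library of label 120 (0.034 and 0.018) and lost with DESeq2, with all 14 libraries and with labels 10 and 30 as a single group.

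Structural RNAs mostly carry no poly(A) tail, and some were called higher at label 120, by amounts that differed between its libraries. Of 25 small structural RNA genes tested, 9 were higher (36%) and none was lower, against 7.85% and 6.22% over all genes. The median log2 fold change of the 25 genes was 0.98. The filter on low counts kept genes that were high in at least 1 group, which may be label 120. RN7SK was at 4.18 and 5.62 CPM at label 10, 4.28 and 4.42 CPM at label 30, and 9.02 and 22.2 CPM at label 120. RN7SK rose by a log2 fold change of 1.74 ± 0.33 (adjusted p = 0.0094), and adjusted p was 0.011 without replicate 1 of label 120 and 0.13 without replicate 2. RN7SL2, an RNA of the signal recognition particle, was at 29.6 and 37.2 CPM at label 10, 25.9 and 16.5 CPM at label 30, and 55.0 and 65.4 CPM at label 120 (log2 fold change 1.17 ± 0.19, adjusted p = 0.0048, and 0.060 without replicate 2 of label 120). Its copy RN7SL1 has a near-identical sequence, so the split of reads between these genes is uncertain. The calls of RN7SK and of RMRP, described next, were lost with DESeq2. RMRP, the RNA of the RNase MRP enzyme that cuts pre-rRNA, was at 0 and 0.5 CPM at label 10, 0.665 and 0.737 CPM at label 30, and 1.20 and 9.09 CPM at label 120. Its call (log2 fold change 3.58 ± 0.82, adjusted p = 0.018) rested on replicate 2 of label 120, without which adjusted p was 0.42, and it was also lost without replicate 1 of label 10 and without either replicate of label 30. BCYRN1 and SCARNA7 lost their calls without replicate 2 as well (0.13 and 0.11), as did RPPH1, SNORD3A, RNVU1-28 and RN7SL1, whose adjusted p lay between 0.13 and 0.47. SCARNA7 and SNORD3A lost them without replicate 1 too (0.32 and 0.098). RNA5S1, a 5S ribosomal RNA gene with near-identical copies, was at 0.123 and 0.250 CPM at label 10, 0.285 and 0.268 CPM at label 30, and 0.421 and 2.59 CPM at label 120 (log2 fold change 2.65 ± 0.67, adjusted p = 0.027, and 0.56 without replicate 2 of label 120).

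Ribosomal RNAs of the mitochondrial genome rose in both libraries of label 120. MT-RNR1 (chrM:648-1601), the 12S rRNA, was at 723 and 1216 CPM at label 10, 1242 and 1047 CPM at label 30, and 2497 and 3302 CPM at label 120. It rose 2.74-fold (log2 fold change 1.46 ± 0.17, adjusted p = 0.0016), with an adjusted p of 0.010 and 0.032 without replicate 1 or 2 of label 120. MT-RNR2 (chrM:1671-3229), the 16S rRNA, was at 4339 and 4702 CPM at label 10, 5348 and 4912 CPM at label 30, and 6636 and 8431 CPM at label 120. It rose by a log2 fold change of 0.65 ± 0.08 (adjusted p = 0.0019). Of 13 protein-coding genes of the mitochondrial genome 4 were higher (30.8%; MT-ND1, MT-ND5, MT-ND6 and MT-CYB), and of 15 mitochondrial tRNAs only MT-TV (6.67%). Of all 30 genes of this genome tested, 7 were higher, compared with 8 and 2 without replicate 1 or 2 of label 120, 2 and 3 without the replicates of label 10 3 without replicate 2 of label 30, and 3 and 4 without the replicates of CX-5461 at label 10. The 7 rises were 23.3% of the 30 genes, against 7.85% over all genes. With all 14 libraries 1 gene of this genome was higher, and without the filter on low counts 14 were. The share of reads in mitochondrial genes was 10.2% ± 1.34 (SD, n = 2) at label 120 and 8.59% ± 0.614 (SD, n = 4) before, and the groups overlapped (exact permutation p = 0.267). The part of RNA quality or of the capture of poly(A) RNA in these rises of RNAs that mostly lack a long tail was not tested.

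**Figure D4:**
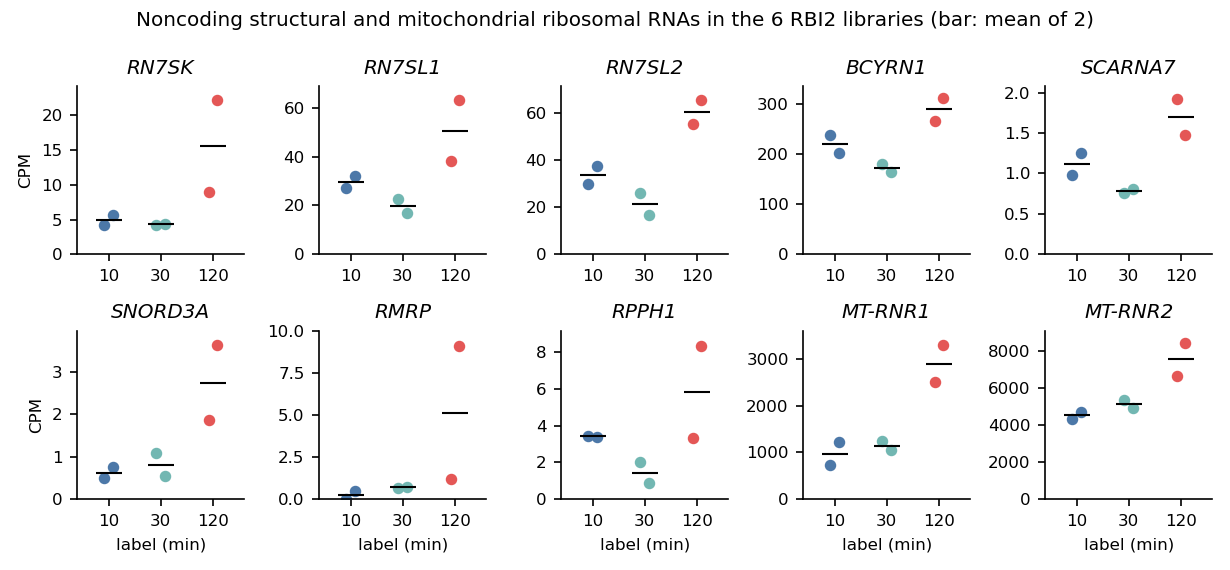
CPM (y axes, each from 0) of 8 structural RNAs and both mitochondrial ribosomal RNAs in the 2 libraries of each label (x axis, label in min), with bars at the mean of 2 replicates. Most points of label 120 lie above the 4 others, and 1 of its 2 libraries carries most of the rise for RN7SK, RMRP and RPPH1, where the lower library of RPPH1 lies within the range of the 4 early libraries.

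Histone genes, many of which make mRNAs that also lack a poly(A) tail, showed 6 rises (24%) and no fall among 25 tested of 72. The shares over all genes were 7.85% and 6.22%, and the median log2 fold change of the list was 0.62. Among its rises were H1-4, H4C1 and H4C3, none of which DESeq2 called. H4C3 (chr6:26103933-26104337, plus strand) was at 0.369 and 0.687 CPM at label 10, 0.618 and 0.603 CPM at label 30, and 3.25 and 2.73 CPM at label 120. Both libraries of label 120 were above the 4 others, and H4C3 rose 5.25-fold (log2 fold change 2.39 ± 0.25, adjusted p = 0.0010), a call lost only with DESeq2. H1-4 was at 1.41 and 1.44 CPM at label 10, 4.51 and 3.48 CPM at label 30, and 5.17 and 7.17 CPM at label 120. Its log2 fold change was 1.36 ± 0.21 (adjusted p = 0.0045, and 0.064 without replicate 2 of label 120). The rises of the list were 2 and 1 without replicate 1 or 2 of label 120 and 3 under the offset, and DESeq2 called 1. Histone genes of a class are near copies of each other, so their reads can be split, and the filter on low counts kept those that were high in at least 1 group.

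The genes called differed in their GC content and length. The median GC content of the transcript was 55.8% for genes called higher, 39.7% for genes called lower and 48.2% for all genes tested. The median transcript length was 4944 bases for genes called higher and 3555 bases for genes called lower, against 2961 bases for all, and the median numbers of exons were 15, 8 and 7. Of 5 classes of genes of equal size by GC content, the lowest held 2.43% higher and 18.4% lower calls, whereas in the highest 14.9% were higher and 0.0971% were lower. The median deviation of the lowest class from the mean of the 6 libraries was 0.12 and 0.10 on the log2 scale at label 10, -0.02 and 0.02 at label 30, and -0.11 and -0.09 at label 120. The level of genes of low GC content thus went down from label 10 to label 120, and the replicates of a label lay close together. Under the offset for transcript length the median GC content was 49.6% for genes called higher and 48.2% for genes called lower. With the GC and length correction the log2 fold change was 0.20 for TCOF1, 0.16 for ATXN2L, 0.17 for ATXN2, 0.26 for POLR2A, -0.37 for CCNE2, -0.10 for CDK1 and -0.17 for IDI1, each closer to 0 than without it. It was further from 0 than without it for ID1 (-0.65), SMAD7 (-0.64), DUSP1 (-0.77), CSRNP1 (-0.60) and ZSCAN21 (-1.34). The part of GC content in single rises and falls was not tested beyond the 2 corrections given above.

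**Figure D5:**
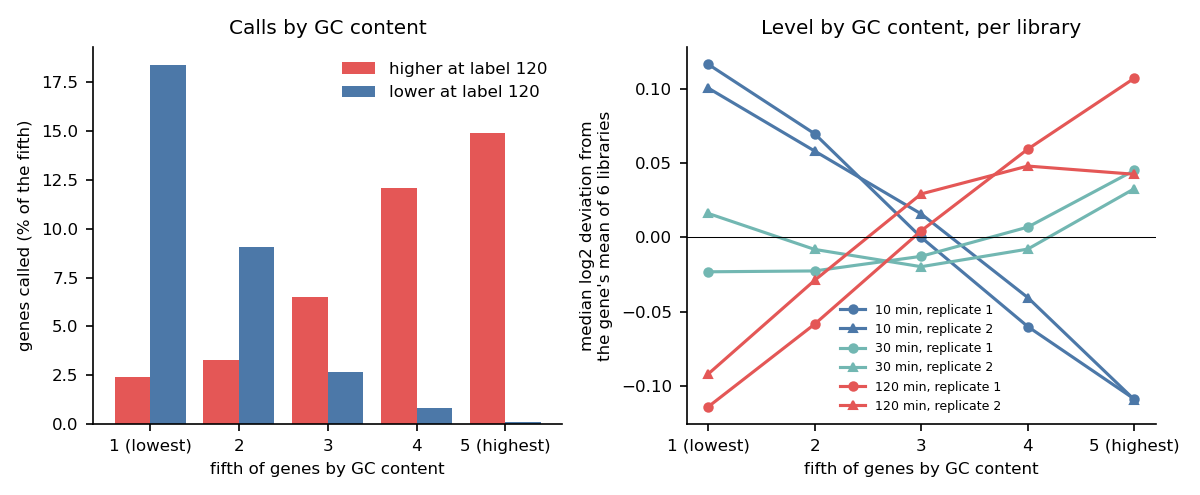
Left, the share of genes called higher and lower (y axis, %) in 5 classes of the genes tested, ordered by GC content (x axis). Right, the median log2 deviation of the genes of each class from their mean of the 6 libraries, for each library, where the lines of label 10 fall from 0.12 and 0.10 with GC content and those of label 120 rise from -0.11 and -0.09.

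Most of the largest fitted changes belonged to genes that had no reads at some labels. Of 12 called genes with an absolute log2 fold change over 4, 7 were pseudogenes, 5 had no read at labels 10 and 30, 4 had none at label 120 and 2 had none at label 30 only. ENSG00000262526 (chr17:7240427-7244635) had no read in any of the 4 early libraries and stood at 24.4 and 21.1 CPM at label 120. It overlaps GABARAP and CTDNEP1 on the same strand, which together were between 287 and 315 CPM in the early libraries and at 269 and 268 CPM at label 120. All of these genes but 1 are pseudogenes or overlap another gene on their strand, so the assignment of their reads is uncertain. PSD3 (chr8:18527303-19084730, minus strand), with the largest fitted rise among the genes named by the rule but a ratio of mean CPM of only 2.44, was at 0.123 and 0.312 CPM at label 10, 35.3 and 33.2 CPM at label 30, and 42.0 and 42.3 CPM at label 120. PSD3 gave a fitted log2 fold change of 3.93 ± 1.01 (adjusted p = 0.028) that lay between label 10 and the rest, and its call was lost when any of the 6 RBI2 libraries was left out (adjusted p = 0.12 and 0.11 without replicate 1 or 2 of label 120). Under the offset the log2 fold change of PSD3 was 2.12. Against label 30 alone the change of PSD3 was 0.30 on the log2 scale (adjusted p = 0.89).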

How the data were processed

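Poly(A) RNA of MDA-MB-231 cells was sequenced in stranded libraries. For every transcript of a library, the authors deposited estimated counts and TPM, both from Salmon (1.3.0 per the submitters' processing notes) on GRCh38 transcripts, after removal of reads that aligned to the rDNA repeat, beside transcript lengths, which the authors deposited as other columns. The authors did not normalize or round the estimated counts. TPM entered only an alternative for the shares of reads.

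The estimated counts were summed per gene with GENCODE release 44. Of 228754 transcripts, 225662 matched by identifier without version, and the 3092 others (between 1.03% and 1.13% of reads) were left out. Sums were rounded, scaled by TMM and tested with edgeR 4.0.16 in R 4.3.3 by the quasi-likelihood F test. The 12 treated libraries entered the filter, the scaling and one model of 6 groups, which left 6 residual degrees of freedom and a common coefficient of variation of 7.67%. Only RBI2 libraries entered the contrasts, apart from the comparison with CX-5461 in the closing section. Genes were kept by filterByExpr (minimum count 10), p-values were adjusted by Benjamini-Hochberg over 15442 genes, and a gene was called at an adjusted p under 0.05. CPM are counts scaled to 1000000 reads of the TMM-scaled library, and fold changes marked ± carry the standard error. Folds without an error are ratios of mean CPM. On simulated data for the comparison of label 120 with labels 10 and 30, run on 15029 genes, 99 of 100 genes changed 2-fold and 100 of 100 changed 4-fold were recovered, with 10 false calls. The genes changed there were well counted, and every gene varied by the same common coefficient of variation. No GC trend and no library that stood apart were simulated, so these figures do not measure how well the calls in the real data hold.

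The genes named are the 12 largest rises and falls with both libraries of label 120 outside the range of the other 4 and a mean of at least 5 CPM, up to 4 called members per list, and PABPC1, ATXN2 and GAPDH. Other called members of a list are named without values. RN7SL2, RNA5S1, BCYRN1, SCARNA7, RPPH1, SNORD3A, RNVU1-28, RN7SL1, ENSG00000262526 and the marker genes were named after their values were seen. Of the genes that met the rule, 1 Y-linked gene is not reported, and further members are given only in counts. Some genes that met the rule are not reported here. The comparison, the gene lists and the tests were chosen with earlier results of these data known. Shares of reads were compared by exact permutation tests. Alternatives were DESeq2 1.42.0, its size factors, no filter, other sets of libraries, an offset for average transcript length, a GC and length correction (splines with 5 degrees of freedom), the replicate number as a block, and each library left out. A log2 fold limit of 1 was added beside each count. Where a library was left out, the lone library of its label was assumed to vary like the other groups.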

Additional observations from a re-analysis of the deposited data

Results flagged for a closer look

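For each of the largest rises and falls other than pseudogenes, the change at label 120 against labels 10 and 30 in RBI2 was set against the same change in CX-5461 by an interaction term in edgeR, a test chosen after the data had been seen. These genes were chosen for a large change in RBI2, which is one side of the difference tested, so the choice favoured a difference and their p-values are no independent evidence of one. Over all genes tested 18.1% differed between the compounds in this way, a share that is not comparable with that of the chosen genes. The log2 change in RBI2 minus that in CX-5461 was 4.69 for RMRP, 2.78 for SFXN3, 2.43 for RN7SK, 1.85 for MT-RNR1, 1.59 for H1-4 and 1.10 for MIRLET7BHG. It was -1.87 for ZSCAN21, -1.49 for IL6ST, -1.43 for TMEM185A, -1.24 for RYK, -1.02 for SKIL, -0.97 for TLCD4, -0.94 for TMBIM4, -0.90 for SLC30A1, -0.82 for PRRG3, -0.78 for ZNF2 and -0.57 for CLK1. PSD3, LUZP1, MUC4, PRR12 and KMT2D did not pass this test (adjusted p = 0.17, 0.079, 0.23, 0.059 and 0.067), and PRR12 had a log2 change of 0.69 in CX-5461 as well (adjusted p = 0.019). Changes in CX-5461 in the direction opposite to RBI2 were -1.17 for SFXN3 (adjusted p = 0.0019), 0.81 for IL6ST (0.024) and 0.59 for ZSCAN21 (0.042). The RBI2 calls of RMRP, RN7SK, H1-4 and RYK were lost without replicate 2 of label 120, those of ZSCAN21 and PRRG3 without replicate 1, and those of TMEM185A, TLCD4, IL6ST and ZNF2 without either. Without replicate 2 of label 120 the RBI2 change of RYK went from -0.82 to -0.45, without replicate 1 that of PRRG3 went from -0.78 to -0.48, and with the offset for transcript length RYK was at -0.20 and TLCD4 at -0.35.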

How the results depend on the processing

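Against labels 10 and 30 together, 2172 genes were called. The count was 3022 without the filter (44.7% instead of 55.8% higher), 384 with all 14 libraries, 348 with the offset for transcript length, 1068 with labels 10 and 30 as a single group, 144 with a log2 fold change of at least 1 and 4542 at an unadjusted p under 0.05, and it ranged from 207 to 2629 as each library was left out. Against label 10 the 3082 calls became 993, 495, 220 and 5172 with all 14 libraries, the offset, the fold limit and the unadjusted p, with a range of 477 to 3550. Against label 30 the 199 calls became 425 with DESeq2, 1234 without the filter, 772 with the 6 RBI2 libraries, 2 with all 14 libraries, 86 with the offset, 341 with the GC and length correction (54.0% higher instead of 87.4%), 32 with the fold limit and 2626 unadjusted, with a range of 7 to 263. Between labels 30 and 10 the 202 calls became 832 without the filter, 591 with the 6 RBI2 libraries, 29 with all 14 libraries, 59 with the offset, 20 with the fold limit and 2715 unadjusted, with a range of 32 to 376. Against label 10 the GC and length correction moved the share higher from 50.2% to 32.0%, and between labels 30 and 10 from 43.1% to 29.8%. The replicate numbers did not pair the samples (correlations of deviations -0.01, -0.02 and 0.02), and with the replicate block the counts were 1735, 2704, 104 and 99 in the same order.

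The share of reads in genes of the mitochondrial genome differed by 3.08 percentage points in TPM instead of 1.62, with a range of 0.672 to 2.56 as libraries were left out. The difference of the share of reads in retained-intron transcripts was 0.276 points in TPM and ranged from -0.140 to 0.145, and that of the share of reads in lncRNA genes was 0.133 points in TPM, 0.280 points without mitochondrial reads and ranged from 0.206 to 0.248. DCP2 turned from -0.35 to 0.012 on the log2 scale with the offset. Of the values of single genes and lists under the alternatives, 2552 kept their direction and their side of the threshold or, for list values, stayed close to the main value, 658 lost the call, 2 gained it (GAPDH, with the GC and length correction alone and with the block), and 379 list values moved. Except where fewer libraries or genes entered, the cause was not tested. At 14112299 to 21107808 reads per library, changes in genes under about 1 CPM rest on few reads, and 2 libraries per label limit every error given.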
